A study of Homo sapiens with 9 samples.

Results

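The genes described here encode the subunits of the nuclear RNA polymerases (Pol I, Pol II and Pol III) and the factors that place Pol I and Pol III on their promoters. They were selected by symbol from the deposited table: names built as POLR with 1, 2 or 3 and further letters, TAF1A to TAF1D, GTF3C1 to GTF3C6, and UBTF, RRN3, BRF1, BRF2, BDP1, GTF3A, MAF1, TWISTNB, CD3EAP and ZNRD1. This gave 52 of 25084 genes. By role they were 6 core subunits of Pol I, 2 subunits shared by Pol I and Pol III, 5 shared by all nuclear polymerases, 10 of Pol II, 10 of Pol III, 6 Pol I initiation factors, 6 subunits of TFIIIC, 4 genes of TFIIIB and TFIIIA, the Pol III repressor MAF1, and 2 loci listed as pseudogenes by RefSeq, POLR2J4 and POLR3DP1. POLR3DP1 stayed under 1 CPM in every library and was not tested, so 51 genes entered the tests. Gene positions below are those of the deposited table, which lie on GRCh38.

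Pol I makes the large ribosomal RNA precursor in the nucleolus, Pol II makes messenger RNA, and Pol III makes transfer RNAs and other short RNAs. The enzymes are separate but share subunits, so a change in 1 gene can touch one, a pair or all of them. MYC-family proteins, of which MYCN is the neural member, are known to raise ribosome production, and growing tumour cells spend much of their transcription on Pol I and Pol III products. Those products were not analysed here: the values are levels of the transcripts that encode the machinery.

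The cells were LAN5, an established human neuroblastoma line with extra copies of MYCN, transfected by nucleofection with the control siRNA siCTR, with siMYCN, an siRNA to MYCN labelled siMYCN_2, or with siHAND2, an siRNA to HAND2 labelled siHAND2_3, and collected after 72 h in growth medium. Each group had 3 libraries of total RNA, and each target had 1 siRNA, so an effect of the siRNA sequence and an effect of the target cannot be told apart. Nothing in the labels says whether the libraries of a group came from separate cultures, so p-values measure the spread between these libraries, which may be technical.

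Depth recovered from the deposited values was 21.1 to 32.7 M assigned reads per library (M, 1000000 reads), so 1 CPM (1 read per M) had a counting error of 17.5% to 21.8%. Libraries of a group correlated at 0.994 to 0.998 (Pearson, across genes averaging 5 CPM or more). MYCN transcript measured 1786 to 1894 CPM with siCTR, 1245 to 1338 with siMYCN and 877 to 969 with siHAND2. MYCN was thus at 70.0% of the siCTR mean in siMYCN and at 49.6% in siHAND2, and HAND2 transcript was at 114% in siMYCN and 54.2% in siHAND2. All 7 sympathetic neuroblastoma markers examined were expressed, with summed levels of 2009 to 2153 CPM in siCTR, 2556 to 2646 CPM in siMYCN and 2074 to 2182 CPM in siHAND2. Members went different ways in siHAND2: DBH was at 243 to 277 CPM with siCTR and 127 to 137 with siHAND2, and STMN2 at 164 to 186 and 315 to 359. The 5 fibroblast and stromal markers summed to 99.7 to 105 CPM in siCTR, 119 to 128 CPM in siMYCN and 248 to 284 CPM in siHAND2, of which 4 reached 1 CPM in at least 3 libraries. Most of the sum was PDGFRB, at 87.6 to 93.3 CPM with siCTR and 164 to 198 with siHAND2. COL1A2, LUM and DCN were also higher with siHAND2, but COL1A1 was not, at 0.522 to 0.936 and 0.279 to 0.526. No Schwann, leukocyte or endothelial marker examined reached that level, and PTPRC, PECAM1 and CDH5 stayed at or below 0.0710 CPM. These lists move with the knockdowns, and their part in the results that follow was not tested. The library siHAND2 replicate 3 lay apart from the other siHAND2 libraries in TAF1D, UBTF, POLR2H and GTF3C5, among others. In BRF1 the siHAND2 libraries were spread, with replicate 3 lowest. Values without siHAND2 replicate 3 stand beside the results of these named genes.

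Levels can be compared between genes only per length, and CPM was therefore divided by the length of each gene's canonical transcript for 51 of the 52 genes. In siCTR the length-scaled levels of the tested genes ran from 0.943 ± 0.0891 CPM per kb for POLR2J4 to 85.9 ± 1.44 CPM per kb for POLR1D (mean ± SD, n = 3 libraries). GTF3A, the zinc finger protein TFIIIA that binds the gene of the smallest ribosomal RNA, and TAF1D stood next, at 76.5 ± 2.93 and 75.8 ± 2.69 CPM per kb, which is not a difference beyond their SDs. The 6 core Pol I subunits lay between 4.68 ± 0.339 CPM per kb (CD3EAP) and 21.9 ± 0.414 CPM per kb (POLR1E). Among Pol III subunits, POLR3G had the lowest length-scaled level, 1.40 ± 0.0841 CPM per kb, against 10.5 ± 0.842 CPM per kb for its paralogue POLR3GL. POLR2A, the catalytic subunit of Pol II, stood at 5.54 ± 0.0962 CPM per kb and the other large Pol II subunit, POLR2B, at 69.6 ± 0.834 CPM per kb. These ratios depend on the transcript taken for each gene.

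**Figure D1:**
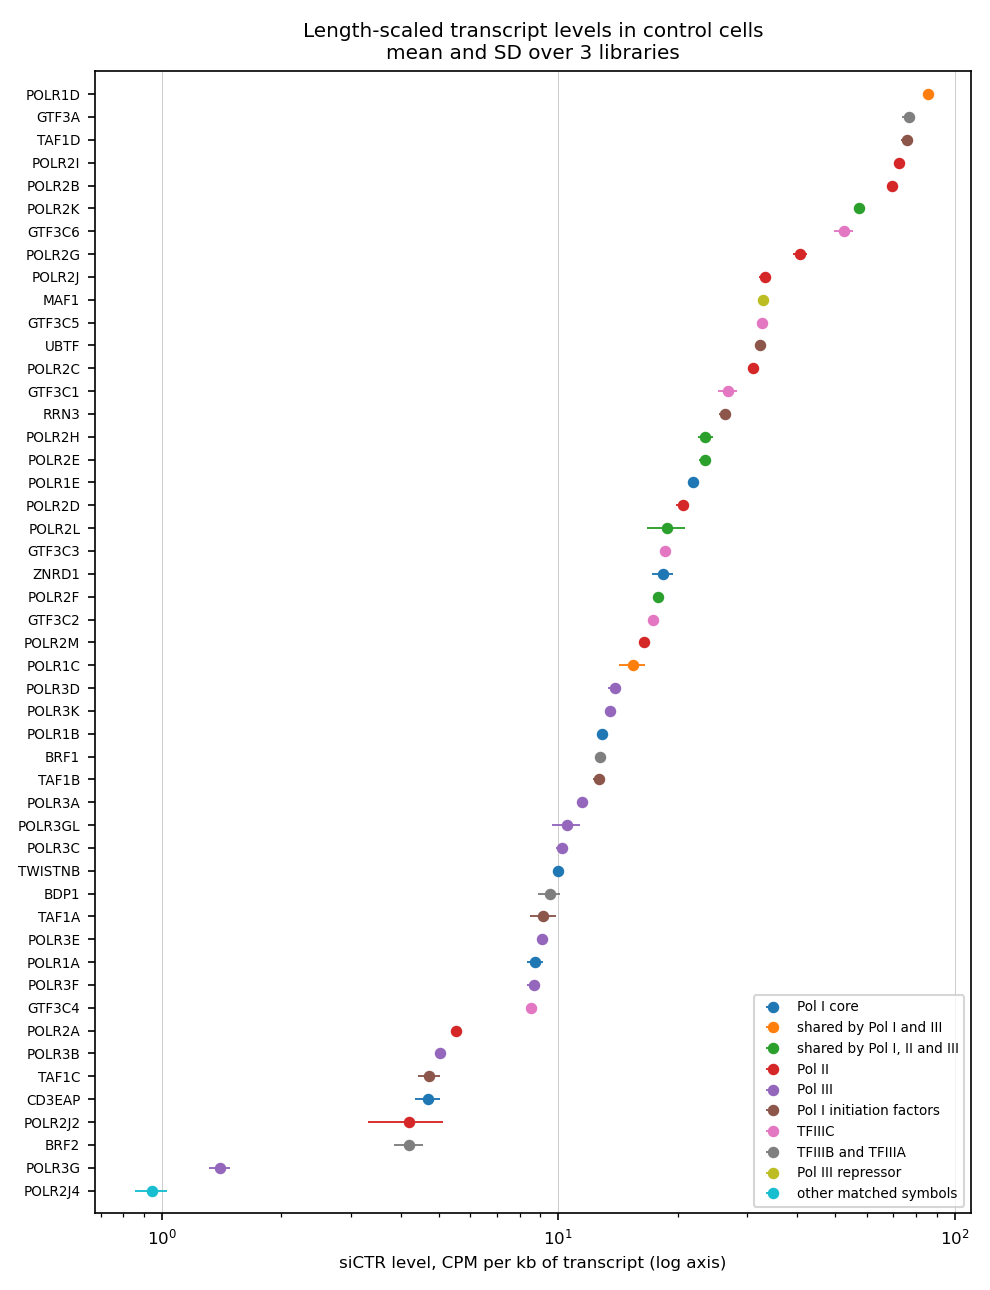
Length-scaled transcript level in the siCTR libraries (CPM per kb of canonical transcript, log axis) for 49 genes with a length and at least 1 CPM in at least 3 libraries. Points are means and bars SDs over 3 libraries, coloured by role. POLR1D is highest at 85.9 CPM per kb, and POLR3G at 1.40 and POLR2J4 at 0.943 CPM per kb are lowest.

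In siMYCN against siCTR, 15 of the 51 tested genes fell and 3 rose at an adjusted p under 0.05 (limma on log2(CPM + 1), Benjamini-Hochberg adjustment over 14495 genes). Of all genes tested, 11.4% fell and 24.5% rose. CPM are shares of each library, so a change in total RNA per cell is not seen, and in bulk samples fewer cells of a type and less RNA per cell cannot be told apart. The falls covered 4 of 6 core Pol I subunits, both subunits shared by Pol I and Pol III, 2 of 5 subunits common to all polymerases and 3 of 10 Pol III subunits, with 1 Pol I initiation factor, 2 TFIIIC subunits and GTF3A. None of the 10 Pol II genes fell or rose past that threshold, and 2 of them had an unadjusted p under 0.05, POLR2G and POLR2I, named after their values were seen. POLR2I (main value -0.13) passed at -0.19 on median-ratio scaling, -0.18 on quantile normalization and -0.13 without siHAND2 replicate 3. POLR2M (-0.08) passed at -0.13 on median-ratio scaling and -0.14 on quantile normalization, and POLR2G (0.14) at 0.17 without siCTR replicate 3 or siMYCN replicate 3 and 0.14 without siHAND2 replicate 3. The median log2 fold change was -0.04 over the 51 genes and 0.06 over all genes tested. After median-ratio rescaling or quantile normalization of the libraries the split was 20 lower and 1 higher under each, where 16.1% of all genes were lower and 16.9% higher under the first, and 16.5% and 16.1% under the second. Without siCTR replicate 1, or without siCTR replicate 2, 1 gene was called higher, and without siHAND2 replicate 3, which shares the estimate of spread, 5 were.

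In siHAND2 against siCTR, 9 of the 51 fell and 3 rose, where 11.8% of all genes tested fell and 18.1% rose (limma, adjusted p under 0.05). The 9 were POLR1B, CD3EAP, POLR1E, POLR1D, TAF1D, POLR3D, POLR3G, GTF3A and GTF3C3, and the 3 were POLR2A, POLR2J3 and GTF3C6. The median log2 fold change was -0.05 over the 51 genes and 0.04 over all genes tested. The stromal markers, mostly PDGFRB, summed to 248 to 284 CPM in siHAND2 and 99.7 to 105 CPM in siCTR, and their part in these changes was not tested. The split was 15 lower and 1 higher after median-ratio rescaling, where 15.5% of all genes were lower and 13.8% higher. It was 13 lower and 1 higher after quantile normalization, where 14.9% were lower and 13.7% higher. Without siCTR replicate 2 the counts were 5 lower and 1 higher, and none was called higher without siHAND2 replicate 2 and 5 without siHAND2 replicate 3. Both knockdowns are set against the same 3 siCTR libraries, so their values are given side by side and not as independent evidence of each other.

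**Figure D2:**
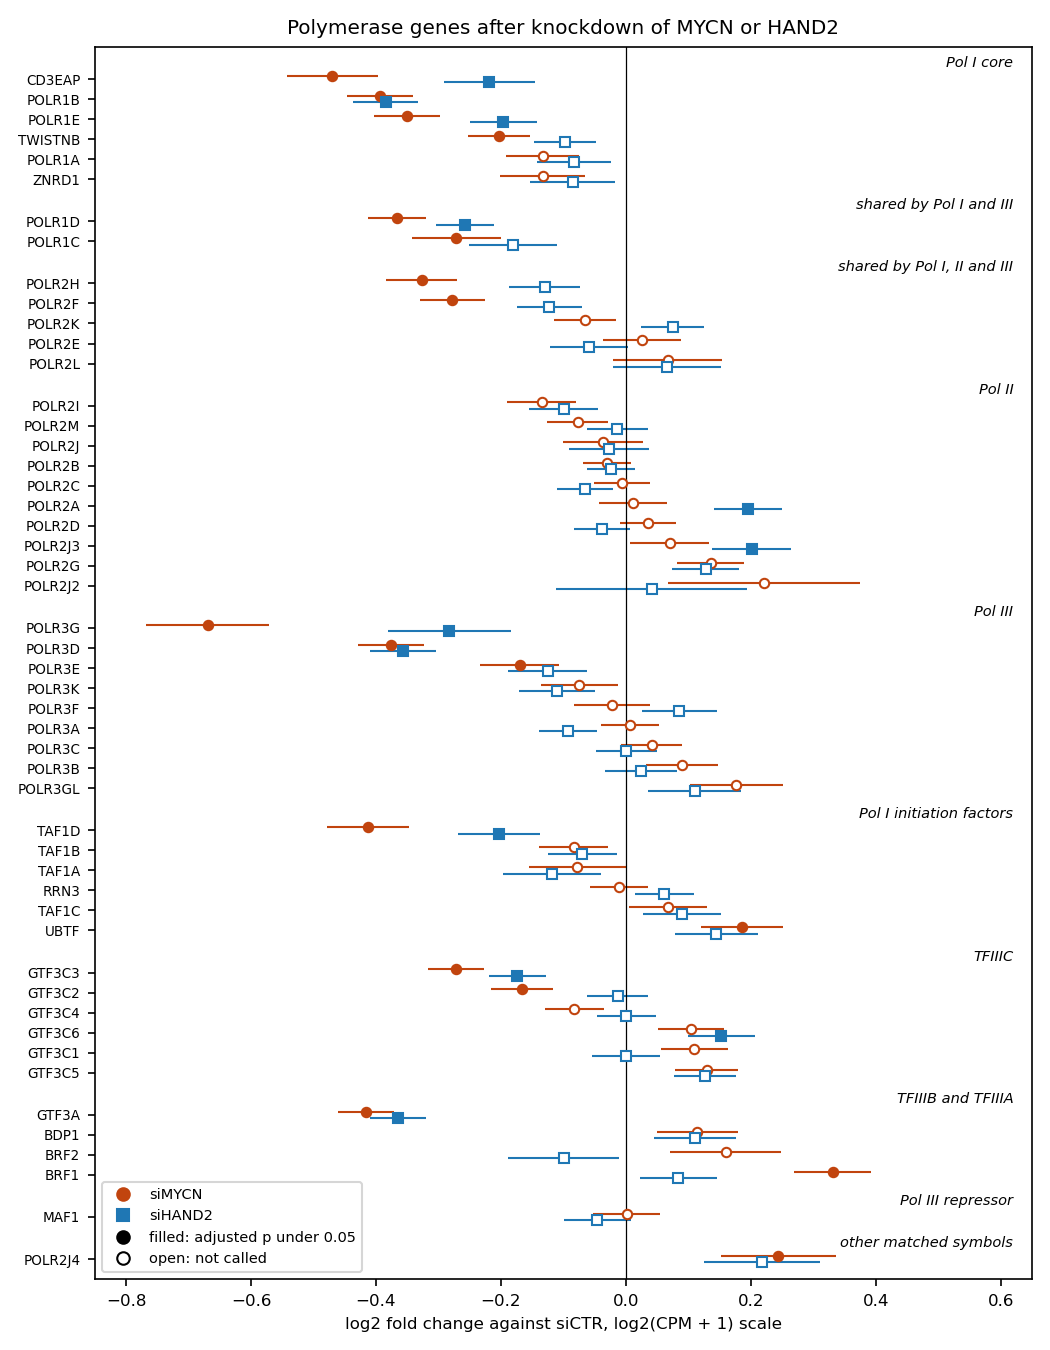
Log2 fold change against siCTR on the log2(CPM + 1) scale for 50 of the tested genes, grouped by role, with siMYCN as circles and siHAND2 as squares. Bars are limma standard errors and filled symbols mark an adjusted p under 0.05. Core Pol I genes lie left of 0 in both knockdowns, from -0.47 to -0.13 in siMYCN, while the Pol II genes lie between -0.13 and 0.22 in siMYCN.

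The core Pol I subunits had a median log2 fold change of -0.28 in siMYCN and -0.15 in siHAND2, and all 6 values were below 0 in each. POLR1B (chromosome 2, 112541915 to 112579818), which with POLR1A forms the catalytic centre, measured 99.1, 95.9 and 96.5 CPM with siCTR replicates 1, 2 and 3. It measured 72.6, 70.6 and 78.3 CPM with siMYCN and 70.1, 73.3 and 79.4 CPM with siHAND2. Both knockdown groups lay wholly below siCTR and overlapped each other. POLR1B fell to 75.9% of the siCTR mean in siMYCN, a log2 fold change of -0.39 (standard error, SE, 0.05, limma, adjusted p = 2.72e-05), and to 76.5% in siHAND2 (-0.38, adjusted p = 3.67e-05). The direct difference between the knockdowns was 0.01 with a 95% interval of -0.10 to 0.12.

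CD3EAP (chromosome 19, 45406209 to 45410766), now named POLR1G, forms with POLR1E a dimer on the surface of Pol I that helps initiation and elongation. CD3EAP measured 13.5, 14.0 and 12.1 CPM with siCTR, 9.53, 9.19 and 9.01 CPM with siMYCN and 11.1, 11.5 and 11.0 CPM with siHAND2. The 3 groups did not overlap, with siHAND2 between the others. It fell by 0.47 on the log2 scale in siMYCN (SE 0.07, limma, adjusted p = 0.000111), leaving 70.0% of its siCTR level. In siHAND2 the change was -0.22 (adjusted p = 0.0319), and the direct difference of siHAND2 from siMYCN was 0.25 (adjusted p = 0.0166). The siHAND2 change missed the threshold at -0.22 with no filter on low values, -0.20 without siCTR replicate 1, -0.18 without siCTR replicate 2, -0.21 without siHAND2 replicate 1 or 3 and -0.24 without siHAND2 replicate 2. The direct difference was lost at 0.23 without siMYCN replicate 3 or siHAND2 replicate 2. The gene overlaps ERCC1 on the other strand.

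Its dimer partner POLR1E (chromosome 9, 37485948 to 37503697) followed the same order of groups. POLR1E measured 40.4, 41.5 and 40.0 CPM with siCTR, 31.5, 30.1 and 33.5 CPM with siMYCN and 36.2, 35.2 and 34.6 CPM with siHAND2, again with no overlap between groups. The log2 fold changes were -0.35 in siMYCN (SE 0.05, limma, adjusted p = 9.14e-05) and, with siHAND2, -0.20 (adjusted p = 0.0103), and 0.15 between the knockdowns (adjusted p = 0.0409). The siHAND2 fall was not called without siCTR replicate 2 (-0.18). The direct difference lay close to the threshold and was lost at 0.15 without siCTR replicate 1 or 2 or 3 or siMYCN replicate 1 or with no filter on low values or without the intensity trend of limma or with the 2 groups fitted alone, 0.12 without siMYCN replicate 2, 0.14 without siHAND2 replicate 1 and 0.16 without siHAND2 replicate 2.

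TWISTNB (now POLR1F), the stalk subunit through which Pol I meets RRN3, fell to 86.6% of siCTR in siMYCN (-0.20, limma, adjusted p = 0.00453). Its levels were 38.5, 38.3 and 39.5 CPM with siCTR and 34.2, 32.7 and 33.7 CPM with siMYCN, without overlap. In siHAND2 it was -0.10 (adjusted p = 0.153), and it passed at -0.14 on median-ratio scaling. POLR1A, the largest Pol I subunit, and ZNRD1 (now POLR1H), the subunit for RNA cleavage, gave -0.13 (adjusted p = 0.0893) and -0.13 (adjusted p = 0.142) in siMYCN. Neither passed the threshold. Once libraries were rescaled by median ratio, POLR1A gave -0.19 (limma, adjusted p = 0.0213) and ZNRD1 -0.19 (adjusted p = 0.046), both past it. The POLR1A groups overlapped, at 114, 104 and 110.3 CPM with siCTR and 105, 90.7 and 103 CPM with siMYCN.

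**Figure D3:**
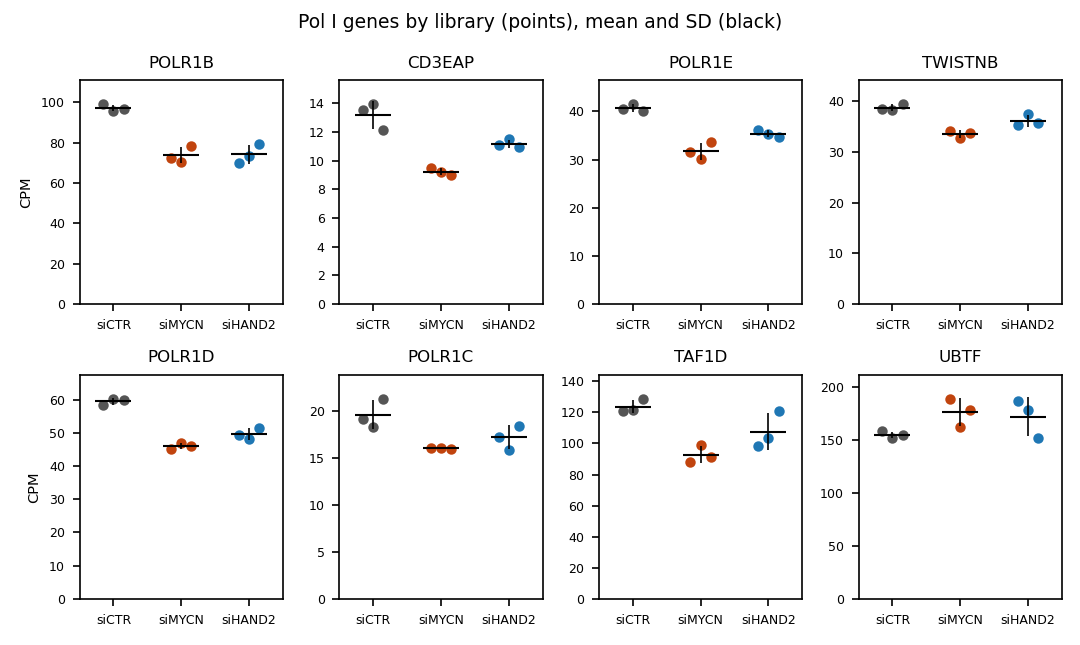
CPM of 8 Pol I genes in each library (points), with group mean and SD (black), axes starting at 0. In POLR1B, CD3EAP, POLR1E, TWISTNB, POLR1D, POLR1C and TAF1D the siMYCN libraries lie below all siCTR libraries, and in UBTF they lie above them.

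Of the 15 genes that fell in siMYCN, 12 had a promoter entry in RefSeq (GRCh38.p14). Promoters were searched for CACGTG, the E-box that MYC-family proteins and other factors of their class are known to bind, from 250 bases before to 50 after each start. The motif reads the same on both strands. It was present for 7 of the 39 genes with an entry (17.9%), for 3 of the 12 that fell in siMYCN and for 11.9% of the 13022 genes of the whole table with an entry. The 6 below are shown because their match lies wholly before the RefSeq start site, with up to 25 bases on each side and the motif in capitals. The seventh, POLR3E, has it across the start site and is not shown.
CD3EAP: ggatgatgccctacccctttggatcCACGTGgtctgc
GTF3C2: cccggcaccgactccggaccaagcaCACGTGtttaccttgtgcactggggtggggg
GTF3C4: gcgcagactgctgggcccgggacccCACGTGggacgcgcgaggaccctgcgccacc
GTF3C6: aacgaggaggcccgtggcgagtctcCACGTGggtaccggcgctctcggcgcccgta
POLR3A: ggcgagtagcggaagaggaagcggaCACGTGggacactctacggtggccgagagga
POLR3C: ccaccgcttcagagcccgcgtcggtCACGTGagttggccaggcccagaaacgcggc

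In CD3EAP (chr19:45406607-45406643 on the plus strand) the motif ran from -12 to -7 relative to the start, the closest of the 6. The GTF3C2 window was chr2:27356837-27356892 on the minus strand, with the motif at -103 to -98. In GTF3C4 (chr9:132669975-132670030 on the plus strand) and POLR3A (chr10:78029520-78029575 on the minus strand) it lay at -35 to -30 in both. The GTF3C6 match (chr6:110958539-110958594 on the plus strand) began at -142 and that of POLR3C (chr1:145823979-145824034 on the plus strand) at -196. Positions count from the RefSeq start, which for CD3EAP is 45406644 and for GTF3C2 27356764. The spans in the deposited table begin further upstream for these, so that both matches lie inside them, and the other 4 lie outside theirs. Of the 6, CD3EAP and GTF3C2 fell in siMYCN, GTF3C2 not without siCTR replicate 2 (-0.16) or siMYCN replicate 2 (-0.14). The other 4 were not called, but GTF3C4 was lower past the threshold at -0.14 on median-ratio scaling and -0.15 on quantile normalization. A match says only that these letters are in the window.

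The pair of subunits shared by Pol I and Pol III, POLR1C and POLR1D, bind each other and nucleate the assembly of both enzymes. Mutations in both genes are known from Treacher Collins syndrome. POLR1D (chromosome 13, 27620742 to 27744237) measured 58.4, 60.3 and 59.9 CPM with siCTR, 45.0, 46.9 and 45.9 CPM with siMYCN and 49.2, 48.2 and 51.6 CPM with siHAND2, 3 groups without overlap. It fell by 0.37 in siMYCN (SE 0.05, limma, adjusted p = 1.64e-05) and by 0.26 in siHAND2 (adjusted p = 0.000535). The difference between the knockdowns was 0.11 (adjusted p = 0.0929). It passed the threshold at 0.13 on median-ratio scaling and 0.14 on quantile normalization.

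POLR1C (chromosome 6, 43509702 to 43562419) fell from 19.2, 18.3 and 21.3 CPM with siCTR to 16.1, 16.1 and 16.0 CPM with siMYCN, where the 3 libraries were nearly equal and all lower (-0.27, limma, adjusted p = 0.007). In siHAND2 it measured 17.2, 15.9 and 18.5 CPM, which overlapped siCTR, and the change of -0.18 had an adjusted p of 0.0658. It passed at -0.22 on median-ratio scaling or on quantile normalization and -0.23 without siHAND2 replicate 3. POLR1C overlaps XPO5 and YIPF3 on the other strand, and the use of strand in counting is not given in the sources used here.

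Of the 5 subunits common to all polymerases, POLR2H and POLR2F fell in siMYCN, and POLR2E, POLR2K and POLR2L were not called against siCTR in either knockdown. In siMYCN 40% were thus lower, against 11.4% of all genes tested. In the direct comparison 60% were higher in siHAND2 than in siMYCN, against 11.4% of all genes. POLR2H (chromosome 3, 184361718 to 184368596) measured 43.4, 43.6 and 40.3 CPM with siCTR, 33.1, 33.9 and 33.9 CPM with siMYCN and 36.6, 37.9 and 41.7 CPM with siHAND2. The siMYCN libraries lay below all others, and siHAND2 replicate 3 fell within the siCTR range. The log2 fold change was -0.33 in siMYCN (SE 0.06, limma, adjusted p = 0.000319) and, with siHAND2, -0.13 (adjusted p = 0.0972), which passed at -0.17 on median-ratio scaling, -0.16 on quantile normalization and -0.18 without siHAND2 replicate 3. The knockdowns differed by 0.20 (adjusted p = 0.0166), a call lost at 0.18 without siMYCN replicate 1 and 0.14 without siHAND2 replicate 3.

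POLR2F (chromosome 22, 37952607 to 38041915) measured 36.4, 36.3 and 38.4 CPM with siCTR, 30.0, 30.6 and 30.5 CPM with siMYCN and 33.8, 35.4 and 32.6 CPM with siHAND2, with no overlap between groups. It fell by 0.28 in siMYCN (limma, adjusted p = 0.000594). The siHAND2 change of -0.12 did not pass (adjusted p = 0.0873), but did at -0.16 on median-ratio scaling and -0.15 on quantile normalization. The direct difference of 0.16 did (adjusted p = 0.0365), though not at 0.16 without siCTR replicate 1 or 2 or siMYCN replicate 2 or 3 or siHAND2 replicate 1 or with the 2 groups fitted alone, 0.15 without siMYCN replicate 1 and 0.13 without siHAND2 replicate 2. POLR2K was also higher in siHAND2 than in siMYCN (0.14, adjusted p = 0.049), at the edge of the threshold. That call was lost at 0.14 without siCTR replicate 1 or 2 or 3 or with no filter on low values or without the intensity trend of limma or with the 2 groups fitted alone, 0.09 without siMYCN replicate 1, 0.16 without siMYCN replicate 3 or siHAND2 replicate 1, 0.15 without siHAND2 replicate 2 and 0.12 without siHAND2 replicate 3.

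Of the 6 Pol I initiation factors, 1 fell and 1 rose in siMYCN and 1 fell in siHAND2. That is 16.7% each way in siMYCN, against 11.4% lower and 24.5% higher of all genes, and 16.7% lower in siHAND2, against 11.8%. TAF1D (chromosome 11, 93729948 to 93784391), a subunit of the promoter factor SL1 whose introns hold small nucleolar RNAs, measured 121, 121 and 129 CPM with siCTR, 88.0, 98.8 and 91.4 CPM with siMYCN and 98.3, 104 and 121 CPM with siHAND2. Its siMYCN libraries were all below siCTR, and siHAND2 replicate 3 lay inside the siCTR range. TAF1D fell by 0.41 in siMYCN (SE 0.07, limma, adjusted p = 0.000137) and by 0.20 in siHAND2 (adjusted p = 0.0267), and the knockdowns differed by 0.21 (adjusted p = 0.025). Without siHAND2 replicate 3 the siHAND2 value was -0.29 (adjusted p = 0.000426). The siHAND2 call was lost at -0.20 without the intensity trend of limma, -0.22 without siCTR replicate 2, -0.17 without siCTR replicate 3, -0.14 without siHAND2 replicate 1 and -0.18 without siHAND2 replicate 2, and the direct difference at 0.21 without the intensity trend of limma, 0.17 without siMYCN replicate 1, 0.20 without siMYCN replicate 3 and 0.12 without siHAND2 replicate 3. The TAF1D span in the table overlaps MED17, CEP295 and C11orf54 on the other strand.

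UBTF (chromosome 17, 44205033 to 44221626), the factor that coats active ribosomal DNA, was the only initiation factor to rise, with 158, 152 and 155 CPM with siCTR and 189, 162 and 179 CPM with siMYCN. All 3 siMYCN libraries lay above siCTR, for a log2 fold change of 0.19 (SE 0.07, limma, adjusted p = 0.0384). The call was lost at 0.19 with no filter on low values or without the intensity trend of limma, 0.13 on median-ratio scaling, 0.12 on quantile normalization, 0.20 without siCTR replicate 1, 0.17 without siCTR replicate 2, 0.18 without siCTR replicate 3 or siMYCN replicate 3 and 0.14 without siMYCN replicate 1. In siHAND2 it measured 186, 178 and 152 CPM, a spread that spans siCTR, and the change of 0.14 (adjusted p = 0.113) became 0.23 without siHAND2 replicate 3, past the threshold.

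RRN3, which couples Pol I to SL1 and is controlled by growth signalling, measured 94.5, 96.8 and 102 CPM with siCTR, 95.3, 94.1 and 101 CPM with siMYCN and 100.0, 99.8 and 106 CPM with siHAND2. Its groups overlapped. The change was -0.01 in siMYCN (95% interval -0.11 to 0.09) and 0.06 in siHAND2 (-0.04 to 0.16). The other SL1 subunits TAF1A, TAF1B and TAF1C gave -0.08, -0.08 and 0.07 in siMYCN and -0.12, -0.07 and 0.09 in siHAND2, none past the threshold.

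Of the Pol II genes, POLR2A and POLR2J3 rose in siHAND2, and the 8 others were not called. In siHAND2 20% were thus higher, close to the 18.1% of all genes tested, and 0% were lower, against 11.8%. POLR2A (chromosome 17, 7484366 to 7514616) carries the repeated tail whose phosphorylation steers the transcription cycle. It measured 35.1, 35.4 and 34.2 CPM with siCTR, 33.4, 34.6 and 37.6 CPM with siMYCN and 38.6, 41.1 and 40.6 CPM with siHAND2, whose 3 libraries exceeded all others. The log2 fold change was 0.19 in siHAND2 (SE 0.05, limma, adjusted p = 0.0128) and 0.01 in siMYCN (95% interval -0.10 to 0.13), with a direct difference of 0.18 (adjusted p = 0.0194). The siHAND2 call was lost at 0.18 without siHAND2 replicate 2 and the direct difference at 0.15 without siMYCN replicate 1 and 0.17 without siMYCN replicate 2 or siHAND2 replicate 2.

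POLR2J3 measured 39.1, 40.2 and 40.8 CPM with siCTR and 46.3, 50.9 and 41.7 CPM with siHAND2 (0.20, limma, adjusted p = 0.0234). The siHAND2 libraries lay above siCTR but were widely spread. The call was lost at 0.16 on median-ratio scaling, 0.17 on quantile normalization, 0.20 without siCTR replicate 2 or without the intensity trend of limma, 0.18 without siCTR replicate 1 and 0.13 without siHAND2 replicate 2. POLR2J, POLR2J2, POLR2J3 and POLR2J4 are near-identical copies, so how reads were divided between them is uncertain. On the same strand POLR2J3 also overlaps UPK3BL2, and POLR2J4 overlaps AC004951.1. In the direct comparison POLR2J3 passed at 0.20 without siHAND2 replicate 3. POLR2J4 rose in siMYCN from 5.55, 6.04 and 6.70 CPM to 6.63, 8.33 and 7.28 CPM (0.24, limma, adjusted p = 0.0494), with overlapping groups. That call was lost at 0.24 without siCTR replicate 2 or siHAND2 replicate 1 or 2 or with no filter on low values or with the 2 groups fitted alone, 0.19 without siCTR replicate 1 or on median-ratio scaling, 0.16 on quantile normalization, 0.17 without siMYCN replicate 2 and 0.25 without siMYCN replicate 3.

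Among Pol III subunits the largest change was that of POLR3G (chromosome 5, 90471748 to 90514557). POLR3G and POLR3GL are alternative forms of 1 subunit of Pol III, the first known from stem cells and tumours and the second from most differentiated tissues. POLR3G measured 4.90, 4.35 and 4.56 CPM with siCTR, 2.74, 2.53 and 2.30 CPM with siMYCN and 3.68, 3.31 and 3.83 CPM with siHAND2. The groups did not overlap, and siHAND2 lay between the others. The gene overlaps MBLAC2 on the other strand. POLR3G fell to 54.8% of siCTR in siMYCN (-0.67, SE 0.10, limma, adjusted p = 6.86e-05) and to 78.4% in siHAND2 (-0.28, adjusted p = 0.0395). The direct difference was 0.39 (adjusted p = 0.00748). At these low levels the log2(CPM + 1) scale understates the change: with a pseudocount of 0.1 the siMYCN value was -0.84. The siHAND2 call was lost at -0.34 at pseudocount 0.1, -0.28 with no filter on low values, -0.24 without siCTR replicate 1, -0.32 without siCTR replicate 2, -0.29 without siCTR replicate 3, -0.30 without siHAND2 replicate 1 and -0.23 without siHAND2 replicate 2.

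POLR3GL (chromosome 1, 145964690 to 145978848) measured 13.2, 12.6 and 11.3 CPM with siCTR, 13.7, 14.1 and 14.5 CPM with siMYCN and 14.2, 13.6 and 12.5 CPM with siHAND2. The siMYCN libraries lay above siCTR, yet the change of 0.18 did not pass (limma, adjusted p = 0.0747), nor did that of 0.11 in siHAND2 (adjusted p = 0.286). The ratio of POLR3G to POLR3GL CPM was 0.373 ± 0.0295 with siCTR, 0.179 ± 0.0205 with siMYCN and 0.269 ± 0.0319 with siHAND2 (SD, n = 3 libraries). By library it was 0.370, 0.345 and 0.403, then 0.199, 0.180 and 0.158, then 0.260, 0.243 and 0.305. The 3 groups did not overlap in this ratio. The ratio is given as a description and was not tested.

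POLR3D, which with POLR3E forms the dimer by which Pol III initiates and ends transcription, measured 75.5, 76.1 and 70.7 CPM with siCTR, 60.0, 54.8 and 55.8 CPM with siMYCN and 58.9, 59.7 and 54.4 CPM with siHAND2. Both knockdown groups lay below siCTR and overlapped each other. The falls were 0.38 (SE 0.05, limma, adjusted p = 4.45e-05) and 0.36 (adjusted p = 8.21e-05) on the log2 scale, and the direct difference was 0.02 (95% interval -0.09 to 0.13). POLR3E fell in siMYCN by 0.17 (adjusted p = 0.0459), from 33.4, 33.3 and 33.8 CPM to 32.2, 28.6 and 28.4 CPM. That fall was not called at -0.17 without siCTR replicate 1 or 2 or siHAND2 replicate 2 or with no filter on low values or without the intensity trend of limma, -0.16 without siCTR replicate 3 and -0.14 without siMYCN replicate 2 or 3. The large subunits POLR3A and POLR3B gave 0.01 and 0.09 in siMYCN and -0.09 and 0.02 in siHAND2, and POLR3C, POLR3F and POLR3K ran from -0.07 to 0.04 in siMYCN and from -0.11 to 0.09 in siHAND2, none of them past the threshold. POLR3A passed it in siHAND2 at -0.13 on median-ratio scaling, and in the direct comparison at -0.14 without siHAND2 replicate 1.

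GTF3A (chromosome 13, 27424619 to 27435823) had the smallest adjusted p of all 51 genes in both knockdowns. It measured 108, 115 and 108 CPM with siCTR, 81.7, 84.3 and 81.3 CPM with siMYCN and 83.1, 84.4 and 89.0 CPM with siHAND2. Every knockdown library lay below every siCTR library. GTF3A fell to 74.7% of siCTR in siMYCN (-0.42, SE 0.04, limma, adjusted p = 3.33e-06) and to 77.5% in siHAND2 (-0.36, adjusted p = 1.25e-05). The knockdowns differed by 0.05 (95% interval -0.04 to 0.15). Both calls held under the 9 alternative settings and the 9 fits that left out 1 library. The gene overlaps MTIF3 on the other strand.

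BRF1 (chromosome 14, 105209286 to 105315589), the TFIIIB subunit used at transfer RNA genes, rose in siMYCN. It measured 47.4, 46.4 and 46.4 CPM with siCTR, 60.1, 59.9 and 57.2 CPM with siMYCN and 54.8, 50.2 and 44.3 CPM with siHAND2. The siMYCN libraries lay above all others, and siHAND2 spread from below to above siCTR. The log2 fold change was 0.33 in siMYCN (SE 0.06, limma, adjusted p = 0.000603) and, with siHAND2, 0.08 (adjusted p = 0.336), which became 0.16 without siHAND2 replicate 3 and then passed. BRF1 was lower in siHAND2 than in siMYCN by 0.25 (adjusted p = 0.007). Within the span of BRF1 lie BTBD6 and PACS2 on the other strand.

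BRF2, which replaces BRF1 at promoters with upstream elements, measured 11.6, 11.0 and 9.75 CPM with siCTR, 10.7, 12.5 and 13.3 CPM with siMYCN and 10.8, 9.47 and 9.69 CPM with siHAND2. It was called only in the direct comparison (-0.26, limma, adjusted p = 0.0399), where the groups overlapped. The call was lost at -0.26 without siCTR replicate 2 or with no filter on low values or without the intensity trend of limma, -0.24 without siMYCN replicate 2 or siHAND2 replicate 3 or on median-ratio scaling or on quantile normalization, -0.20 without siMYCN replicate 3 and -0.23 without siHAND2 replicate 2. BDP1, the third TFIIIB component, gave 0.11 in siMYCN (adjusted p = 0.19) and, with siHAND2, 0.11 (adjusted p = 0.221). The siHAND2 value passed at 0.18 without siHAND2 replicate 1. MAF1, the repressor that holds Pol III off its genes under stress, measured 56.7, 57.8 and 55.0 CPM with siCTR, 59.0, 57.1 and 53.5 CPM with siMYCN and 57.1, 56.0 and 51.1 CPM with siHAND2. Its changes were 0.001 (95% interval -0.11 to 0.12) and -0.05 (-0.16 to 0.07), with overlapping groups.

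TFIIIC is the complex that recognises the internal promoters of transfer RNA genes. GTF3C3 (chromosome 2, 196763035 to 196799725) measured 79.1, 78.3 and 79.9 CPM with siCTR, 64.3, 64.9 and 66.8 CPM with siMYCN and 67.8, 68.6 and 73.8 CPM with siHAND2, with no overlap between groups. It fell by 0.27 in siMYCN (SE 0.05, limma, adjusted p = 0.000225) and by 0.17 in siHAND2 (adjusted p = 0.0083). The direct difference of 0.10 passed at 0.13 on quantile normalization. GTF3C2 fell in siMYCN, from 62.3, 63.1 and 62.2 CPM to 58.2, 53.2 and 55.5 CPM (-0.17, adjusted p = 0.0144). In siHAND2 it measured 64.3, 62.6 and 59.0 CPM, and the direct difference was 0.15 (adjusted p = 0.0286). The siMYCN call of GTF3C2 was lost at -0.16 without siCTR replicate 2 and -0.14 without siMYCN replicate 2, and the direct difference at 0.15 without siMYCN replicate 3 or siHAND2 replicate 2 or without the intensity trend of limma or with the 2 groups fitted alone, 0.12 without siMYCN replicate 2 and 0.13 without siHAND2 replicate 1.

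GTF3C6 rose in siHAND2, from 43.9, 40.6 and 39.7 CPM to 45.1, 46.9 and 46.3 CPM (0.15, limma, adjusted p = 0.0413), with groups that did not overlap. The call was lost at 0.15 without siMYCN replicate 1 or siHAND2 replicate 3 or with no filter on low values or without the intensity trend of limma or with the 2 groups fitted alone, 0.11 on median-ratio scaling, 0.12 without siCTR replicate 3 or on quantile normalization and 0.14 without siCTR replicate 2 or siHAND2 replicate 2. GTF3C1, GTF3C4 and GTF3C5 gave 0.11, -0.08 and 0.13 in siMYCN. Of these, GTF3C5 was nearest the threshold (adjusted p = 0.0536) and passed it at 0.13 without siHAND2 replicate 1 or 3 or with a filter of 5 CPM or with the 2 groups fitted alone, but gave 0.07 after either rescaling. GTF3C4 passed at -0.14 on median-ratio scaling and -0.15 on quantile normalization. In siHAND2 the 3 gave 0.00012, 0.00046 and 0.13, and GTF3C5 passed at 0.18 without siHAND2 replicate 3.

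**Figure D4:**
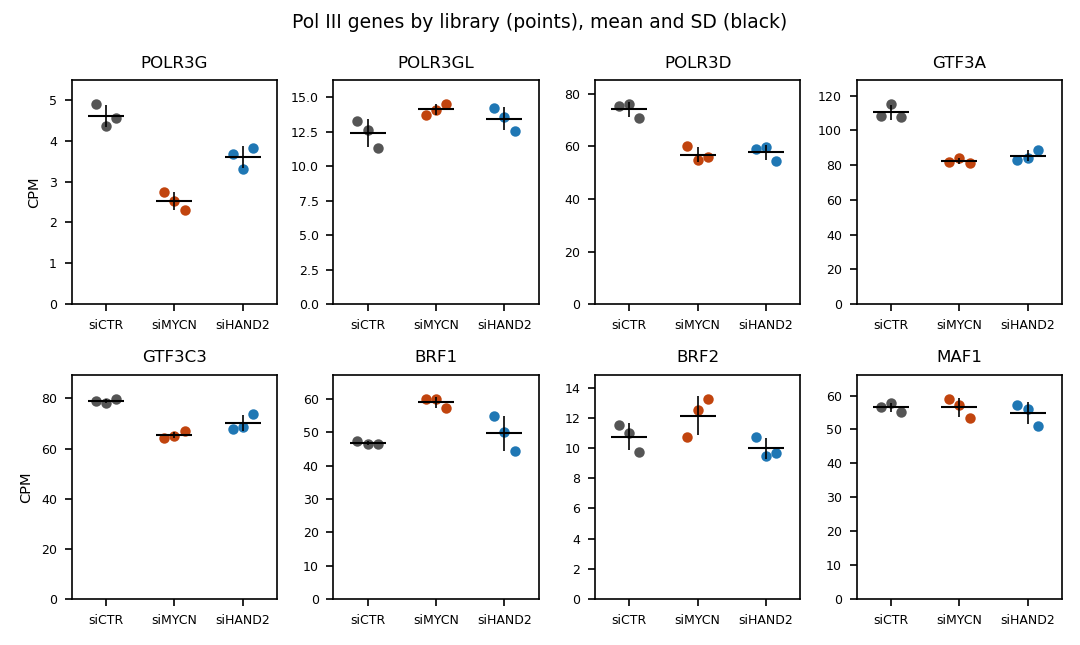
CPM of 8 Pol III genes in each library (points), with group mean and SD (black), axes starting at 0. POLR3G, POLR3D, GTF3A and GTF3C3 are lower in every library of both knockdowns than in siCTR, BRF1 is highest in siMYCN (57.2 to 60.1 CPM), and MAF1 overlaps between all groups.

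The direct comparison of siHAND2 with siMYCN uses no siCTR library in its difference. It gave 9 of the 51 genes higher and 2 lower in siHAND2 (limma, adjusted p under 0.05), against 11.4% higher and 15.5% lower of all genes tested. The 9 were CD3EAP, POLR1E, POLR2A, POLR2F, POLR2H, POLR2K, POLR3G, TAF1D and GTF3C2, and the 2 were BRF1 and BRF2. The median difference was 0.02 over the 51 genes and -0.01 over all genes. POLR3G (0.39) and BRF1 (-0.25) kept their calls in every alternative fit that held them, 18 for BRF1 and 17 for POLR3G, which a filter of 5 CPM removes. The count higher in siHAND2 was 3 without siMYCN replicate 1 or without siHAND2 replicate 2, 4 without siMYCN replicate 3, and 5 without siMYCN replicate 2 or without siHAND2 replicate 1. The count lower was 1 without siCTR replicate 2, siMYCN replicate 2, siMYCN replicate 3, siHAND2 replicate 2 or siHAND2 replicate 3.

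Other genes of the transcription machinery were taken from lists. Of 31 Pol II general transcription factors, 4 rose and 3 fell in siMYCN, and 4 rose and 1 fell in siHAND2. These are 12.9% higher and 9.68% lower in siMYCN, against 24.5% and 11.4% of all genes, and 12.9% and 3.23% in siHAND2, against 18.1% and 11.8%. TAF13, a subunit of the Pol II promoter factor TFIID, had the largest rise of these, from 10.7 ± 1.08 CPM in siCTR to 13.6 ± 0.247 in siMYCN and 14.0 ± 1.02 in siHAND2 (mean ± SD, n = 3 libraries). Its log2 fold changes were 0.32 (limma, adjusted p = 0.00484) and 0.36 (adjusted p = 0.00281). Of 11 genes for polymerase assembly and import, 5 fell and 2 rose in siMYCN and 3 fell in siHAND2. In siMYCN 18.2% were higher and 45.5% lower, against 24.5% and 11.4% of all genes. In siHAND2 27.3% were lower, against 11.8%. The falls include the ATPase RUVBL1 (-0.23 in siMYCN and -0.24 in siHAND2) and the prefoldin-like URI1 (-0.27 and -0.19), all past the threshold. PDRG1 (0.28, limma, adjusted p = 0.00501) and GPN2 (0.21, adjusted p = 0.0398) rose in siMYCN.

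Of 12 genes of Pol I elongation, termination and nucleolar chromatin, 3 fell and 1 rose in siMYCN, and 3 fell and 2 rose in siHAND2. The shares were 8.33% higher and 25% lower in siMYCN, against 24.5% and 11.4% of all genes. In siHAND2 they were 16.7% and 25%, against 18.1% and 11.8%. SUPT6H rose in siMYCN (0.18, limma, adjusted p = 0.0415). TTF1 (0.20, limma, adjusted p = 0.0115) and TOP1 (0.19, adjusted p = 0.00462) rose in siHAND2. NPM1, an abundant nucleolar chaperone, went from 1743 ± 27.6 CPM to 1141 ± 14.0 in siMYCN and 1447 ± 92.1 in siHAND2. Its log2 fold changes were -0.61 (limma, adjusted p = 1.11e-07) and -0.27 (adjusted p = 0.000364). FBL, the methyltransferase of small nucleolar ribonucleoproteins, fell by 0.50 and 0.31. Of the 5 SNAPc genes, which serve Pol II and Pol III promoters of small nuclear RNAs, only SNAPC1 was called. That is 20% lower in each comparison. The shares of all genes were 11.4% in siMYCN, 11.8% in siHAND2 and 15.5% in siHAND2 against siMYCN. SNAPC1 fell by 0.26 in siMYCN (adjusted p = 0.00345) and by 0.62 in siHAND2 (adjusted p = 7.95e-07), and was lower in siHAND2 than in siMYCN by 0.36 (adjusted p = 0.000221). For mitochondrial transcription, POLRMT, TFAM and TFB2M all fell in siMYCN, by 0.24, 0.18 and 0.35. That is 100% of a list of 3 genes, against 11.4% of all genes. POLRMT fell in siHAND2 by 0.36, which is 33.3% of the list, against 11.8% of all genes. TFB2M (-0.18, limma, adjusted p = 0.0867) and TFAM (-0.01, adjusted p = 0.938) were not called in siHAND2.

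As a description of likeness, log2(CPM + 1) of every tested gene over the 9 libraries was correlated with the mean z-score of the 6 core Pol I subunits. Outside the genes described here, XPO5, a nuclear export receptor, was most alike (Pearson 0.986), then NT5DC3 (0.983). XPO5 measured 171, 167 and 170.4 CPM with siCTR, 127, 121 and 127 CPM with siMYCN and 139, 145 and 134 CPM with siHAND2. It overlaps POLR1C on the other strand. The 9 points fall into 3 groups and share their libraries' depth.

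In all, 23 of the 51 genes were called in at least 1 comparison and 28 in none. Of the 52 genes, 22 overlap a gene of at least 1 CPM on the other strand, and 4 overlap one on the same strand. The matching shares of all genes were not worked out, so these counts show nothing particular to the genes described here.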

How the data were processed

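RNA of 9 LAN5 libraries was sequenced, 3 per siRNA group. The deposited values are CPM (counts per M reads) per gene, and the submitters' processing notes list STAR 2.5.1, Partek, hg19 and GRCh37; the counting step and its use of strand are not given in the sources used here. The table's gene positions lie on GRCh38: of 18215 symbols also in RefSeq GRCh38.p14, 91.4% start within 5000 bases. Only 79.8% to 81.3% of low values (up to 20 reads) were whole multiples of 1 read within 0.02, so counts were not recovered and no count test was run.

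Genes that reached 1 CPM in 3 or more libraries (14495 of 25084) were tested on log2(CPM + 1) with limma 3.58.1 in R 4.3.3 (intensity trend, all 9 libraries in 1 fit, Benjamini-Hochberg over 14495 genes, threshold 0.05). Fold changes on this scale understate those of low genes. The code was tested on simulated data. Depth was read from the step of 1 read between low values. Values by library follow a rule: in each comparison the 6 largest called changes per direction among genes averaging 5 CPM or more, the gene with the smallest p per role, and POLR3G with POLR3GL. TWISTNB, POLR1A, POLR1C, RRN3, POLR3E and GTF3C2, and the genes named from other lists, were added after their values were seen. The genes and lists were chosen with earlier results of these data known. Alternatives covered pseudocount, filter, scaling, trend, groups fitted, replicate block and leaving out each library. Sequences are from RefSeq GRCh38.p14, and transcript lengths from GENCODE. The values of 1 tested gene, which stays in the counts, and of 1 gene of similar pattern are not reported here.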

Additional observations from a re-analysis of the deposited data

How the results depend on the processing

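No result changed direction past the threshold. Among the alternative values of single genes, 2582 kept their side of the threshold, 120 lost it and 46 gained it. The 2582 include 95 values that changed sign and were not called either way, from 40 main values of at most 0.07 in size. Of 41 called changes, 21 held under each alternative that gave a value and 20 were lost under at least 1. Up to 18 alternatives were run, and the filter of 5 CPM gave no value for POLR3G and POLR2J2.

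The counts of genes called moved by more than 1.5 times as follows. Higher in siMYCN, the main count of 3 became 1 with no filter, after median-ratio rescaling or after quantile normalization, and 1 to 5 when 1 library was left out. Higher in siHAND2, 3 became 1 after median-ratio rescaling, after quantile normalization or without the intensity trend, and 0 to 5 when 1 library was left out. Lower in siHAND2, 9 became 15 after median-ratio rescaling, and 5 to 10 when 1 library was left out. In siHAND2 against siMYCN, 9 higher became 5 without the trend or with the 2 groups fitted alone, and 3 to 7 when 1 library was left out. There, 2 lower became 1 with no filter, after median-ratio rescaling, after quantile normalization or without the trend, and 1 to 3 when 1 library was left out. The 15 lower in siMYCN ranged from 13 to 16 when 1 library was left out. The cause was not tested.

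Same-numbered libraries correlated at -0.04 to 0.305 in their deviations from the group means, over 0.1 in 6 of 9 pairs. Libraries with different numbers ran from -0.296 to 0.141. Pairing required over 0.1 in every same-numbered pair, so the numbers were not taken as a pairing. Of all genes, a replicate block called 5895 in siMYCN, 5089 in siHAND2 and 4689 between the knockdowns. The main fit, without it, called 5209, 4339 and 3892. With the replicate block, 5 genes were called higher in siMYCN and 5 in siHAND2. It added GTF3C1, GTF3C5 and POLR1A (lower) in siMYCN, POLR1C (lower), UBTF and GTF3C5 in siHAND2 and GTF3C1 (lower) between the knockdowns. Depth gave a counting error of 17.5% to 21.8% at 1 CPM, which weighs most on POLR2J2 (2.09 CPM in siCTR), then POLR3G.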
